A study of Homo sapiens with 346 samples.

Results

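Heat shock protein genes code for molecular chaperones, and 10 of them (HSPA1A, HSPA1B, DNAJB1, HSPH1, HSP90AA1, HSPB1, HSPA8, HSP90AB1, HSPD1 and HSPE1) were followed here in single live and methanol-fixed cells of 2 cell lines. They were chosen by name out of the 31463 genes listed in either gene table, and each of the 10 has a row in both tables, which hold 28806 genes for HCT-116 and 29551 for HepG2. Of these, 6 were taken as inducible (HSPA1A, HSPA1B, DNAJB1, HSPH1, HSP90AA1 and HSPB1) and 4 as constitutive (HSPA8, HSP90AB1, HSPD1 and HSPE1).

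The study set live cells against cells fixed in methanol to see how fixation alters Smart-seq2 libraries, made by full-length cDNA synthesis from the polyadenylated RNA of each cell. HCT-116, a human colorectal carcinoma line, gave 91 live and 92 fixed cells with values, and the cells labelled HepG2, known as a human liver carcinoma line, gave 68 live and 83 fixed cells. Both lines grew in DMEM with serum and antibiotics, and live and fixed cells came from the same suspension, of which a portion was processed at once (live) and the rest was put in 80% methanol, stored at -80 °C for 1 week, rehydrated and then sorted (fixed). Propidium iodide staining is described for live cells alone, and the fixed libraries were made later, so fixation, storage, staining and library batch cannot be told apart. HCT-116 was done in a single experiment and HepG2 in 2 experiments that the labels do not separate. Each line and treatment therefore counted as a single sample (1 per group) of which the cells are not replicates, no test between treatments was possible, and every SD below is over cells.

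Chaperones bind unfolded or newly made proteins and help them to fold, to assemble or to be degraded. When unfolded protein builds up, as in heat, the transcription factor HSF1 forms trimers, binds heat shock elements made of inverted repeats of the unit GAA, and drives the inducible genes. Constitutive members are transcribed in unstressed cells as well, where HSPA8 (HSC70) and HSP90AB1 serve in general protein folding and HSPD1 and HSPE1 (HSP60 and HSP10) form the folding chamber of the mitochondrial matrix. Cultured tumour cells are known for high levels of many of these proteins, and handling steps such as dissociation are known to induce some of the genes.

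The promoters of the 10 genes were read from RefSeq windows of build GRCh38.p14, which run from 250 bases before to 50 bases after each listed start, and all 10 genes matched, with 16 windows. Heat shock elements were searched as the inverted pairs GAANNTTC and TTCNNGAA, each of which reads the same on both strands, and as 3 units in register, GAANNTTCNNGAA or its reverse complement TTCNNGAANNTTC, which by construction contain both pairs. An inverted pair lay in a window of 8 of the 10 genes, and in 13.5% of all 35116 windows or 16.2% of all 27305 genes. The run of 3 units lay in windows of HSP90AA1, HSPA8, HSP90AB1 and HSPD1, and in 0.490% of all windows or 0.608% of all genes. A match is a run of letters and not a measured binding site. The stretches that hold the matches upstream of a start are shown from 5' to 3' on the strand of the gene, with the matching pairs in capitals, because genes of both classes hold them. A further DNAJB1 pair, which begins at or next to another listed start of the gene and so lies in transcribed sequence, is not shown.
HSPA1A, chr6:31815413-31815468, plus strand: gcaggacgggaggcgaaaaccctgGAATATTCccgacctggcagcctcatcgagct
HSPA1B, chr6:31827609-31827664, plus strand: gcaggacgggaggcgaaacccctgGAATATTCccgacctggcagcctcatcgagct
DNAJB1, chr19:14518413-14518498, minus strand: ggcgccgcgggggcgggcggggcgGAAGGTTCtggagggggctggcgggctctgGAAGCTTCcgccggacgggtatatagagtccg
HSP90AA1, chr14:102087081-102087156, minus strand: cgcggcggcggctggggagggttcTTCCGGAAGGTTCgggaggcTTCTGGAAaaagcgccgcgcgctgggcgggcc
HSPB1, chr7:76302467-76302522, plus strand: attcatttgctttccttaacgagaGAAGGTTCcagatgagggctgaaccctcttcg
HSPA8, chr11:123062346-123062374, minus strand: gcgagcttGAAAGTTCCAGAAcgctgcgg
HSPA8, chr11:123062171-123062199, minus strand: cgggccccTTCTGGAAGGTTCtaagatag
HSP90AB1, chr6:44247770-44247798, plus strand: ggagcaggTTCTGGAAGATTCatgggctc
HSP90AB1, chr6:44247823-44247851, plus strand: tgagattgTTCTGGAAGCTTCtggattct
HSPD1, chr2:197500061-197500090, minus strand: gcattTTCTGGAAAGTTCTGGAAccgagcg

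HSPA1A and HSPA1B carried the same pair at nearly the same distance before their starts. The constitutive HSPA8 held a run of 3 units at 230 and another at 55 bases before its start. The HSP90AB1 runs belonged to the window of a start that lies 842 bases downstream of its MANE Select start (the reference transcript of the gene in GENCODE release 44). HSPD1 and HSPE1 stand head to head on chromosome 2, with their starts 539 bases apart. The letters searched were not in the HSPE1 window, and the HSPD1 run lay 294 bases before the HSPE1 start, outside that window. They were not in the HSPH1 window either, which belongs to a start 484 bases upstream of the MANE Select start of that gene.

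HSPA1A and HSPA1B are neighbours on chromosome 6, 9795 bases apart, and both are single-exon genes for the same inducible HSP70 protein. Their coding sequences are 1923 bases long and differ at 4 bases, an identity of 99.8% in the reference. Of the 2370 words of 31 bases in the HSPA1A transcript only 548 (23.1%) are absent from HSPA1B, and of the 2487 in HSPA1B only 665 (26.7%) are absent from HSPA1A. The authors' program, kallisto, divides reads that fit both transcripts by estimation, so the level of each gene is uncertain and their sum is given beside them. The stretch below, coding bases 1876 to 1920, holds 2 of the 4 differing bases, in capitals, and shows how little sequence separates the genes within the coding part.
HSPA1A: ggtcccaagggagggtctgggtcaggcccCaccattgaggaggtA
HSPA1B: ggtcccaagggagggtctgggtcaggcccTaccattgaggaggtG

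Several properties of the libraries moved with treatment. Total reads per cell were derived from the most frequent transcript value of the cell, taken as a single read. Their median was 2.5 M (mega) for live HCT-116, 1.8 M for fixed HCT-116, 2.4 M for live HepG2-labelled and 2 M for fixed HepG2-labelled cells. The range over all cells was 0.2 to 5.3 M. Live cells had more genes above 0 than fixed ones, at medians of 12031 against 10359 for HCT-116 and of 13887 against 12293 for HepG2-labelled cells. Ribosomal RNA genes took a median of 24.6% of the TPM of a live HCT-116 cell and 7.60% of that of a fixed one, and 5.72% and 2.39% among the HepG2-labelled cells, and every other gene's TPM depends on that share. A column held equal values under a live and a fixed HepG2 name. The HepG2 label did not match the markers of hepatocytes: of 17 such markers 9 were listed, none exceeded 1 TPM in more than 50% of the cells in either line, and their summed level had a median of 0 and a highest value of 89.7 TPM in the HepG2-labelled cells. Of 10 genes of intestinal epithelium, 7 were listed for HCT-116 and 8 for HepG2. EPCAM, KRT8 and KRT18 of that list exceeded 1 TPM in every cell of both lines. CDX2 did so in 69.9% of HCT-116 and 0% of HepG2-labelled cells, and the rest in fewer than 50% of either line. The cells under the HepG2 name are therefore called HepG2-labelled.

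All 10 genes had a mean of at least 1 TPM in each of the 4 groups. In live HCT-116 cells HSP90AB1 had the highest mean level, 1301 ± 369 TPM (SD), and ranked 77th of all genes. HSPA8 followed with 970 ± 600, HSPB1 with 879 ± 449, HSP90AA1 with 750 ± 264, HSPD1 with 691 ± 221 and HSPE1 with 545 ± 259 TPM. No step between neighbours among these 6 was larger than the larger of their SDs, so their order is not separated by the spread over cells. A step above the SD came next: DNAJB1 was at 124.8 ± 121.6, HSPA1B at 120.6 ± 118.1 and HSPH1 at 77.95 ± 54.7 TPM. HSPA1A was last at 4.41 ± 4.67 TPM.

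The HepG2-labelled cells kept the same broad division, with HSPB1 at the top. In live cells HSPB1 (HSP27, a small heat shock protein that holds unfolded proteins and affects actin) had a mean of 1720 ± 1000 TPM and ranked 40th of all genes. It exceeded HSPA8 (619 ± 296) by more than the SD. HSP90AB1 (507 ± 167.6), HSP90AA1 (328 ± 136.02), HSPE1 (281 ± 102.1) and HSPD1 (254 ± 98.4) followed. HSPA1A, last in HCT-116, was next at 102.7 ± 62.2 TPM, ahead of DNAJB1 (84.2 ± 47.9), HSPA1B (40.1 ± 21.3) and HSPH1 (38.1 ± 24.2).

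**Figure D1:**
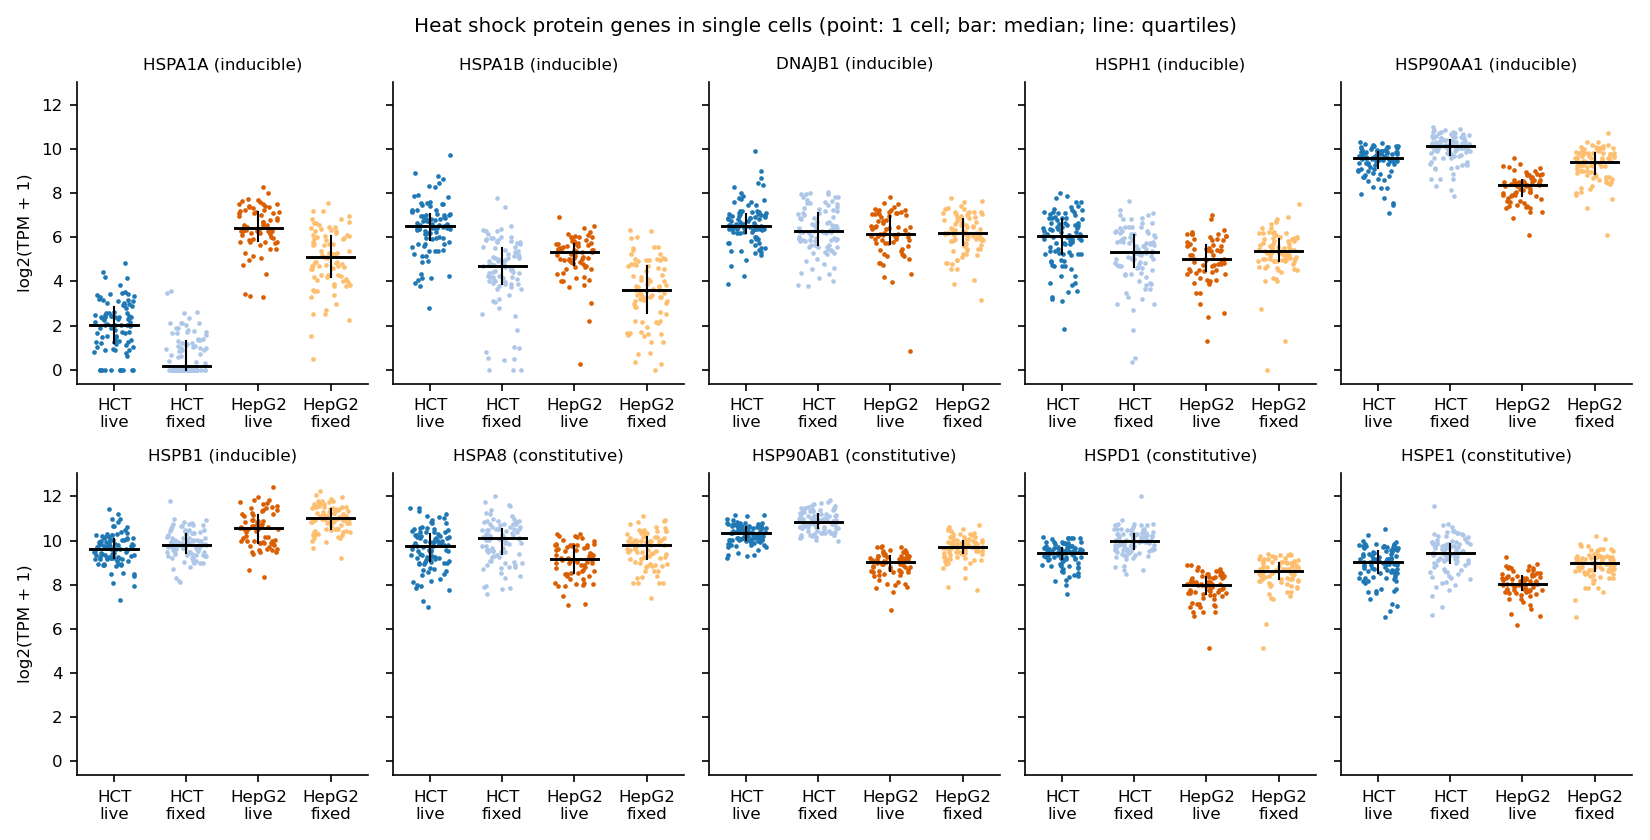
Level of each of the 10 genes in every cell, as log2(TPM + 1), in live and fixed HCT-116 and HepG2-labelled cells (1 point per cell, bar at the median, vertical line from the lower to the upper quartile). HSPA1A and HSPA1B sit lower in the fixed than in the live cells of both lines, while the HSP90 genes, HSPD1 and HSPE1 sit higher, and HSPA1A is near 0 in many fixed HCT-116 cells.

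The inducible HSP70 genes HSPA1A and HSPA1B both had lower means in fixed cells in each line. Their log2 ratios were the farthest from 0 of the 10 members, except in HepG2-labelled cells paired on total reads. There HSP90AA1 (1.34) and the 4 constitutive genes (0.92 for HSPD1 to 1.07 for HSPE1) were farther from 0. HSPA1B in HCT-116 ranged from 5.94 to 835 TPM in live cells with a median of 91.3, and from 0 to 222 TPM in fixed cells with a median of 24.6. Only 2 of 92 fixed cells lay above the live median, although the ranges overlapped. Its mean was 3.68-fold lower in fixed cells (120.6 ± 118.1 against 32.8 ± 32.9 TPM), a log2 ratio of mean TPM, fixed over live, of -1.88.

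HSPA1A in HCT-116 ranged from 0 to 27.3 TPM in live cells with a median of 3.07, and from 0 to 10.9 TPM in fixed cells with a median of 0.124. It was at 0 in 11 of 91 live cells and in 46 of 92 fixed cells, so that 87.9% of live cells had a value above 0 (exact Clopper-Pearson bounds at 95%, 79.4% and 93.8%) against 50% of fixed cells (bounds 39.4% and 60.6%). These intervals cover counting error only. The values rested on a median of 12.7 estimated reads in live and 0.984 in fixed cells, so a 0 in fixed cells says only that the gene was not detectable at this depth. The mean fell 4.10-fold, from 4.41 ± 4.67 to 1.08 ± 1.85 TPM (log2 ratio -2.04), and the sum of both genes fell 3.69-fold (-1.88).

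In HepG2-labelled cells HSPA1A ranged from 8.90 to 313 TPM in live cells with a median of 85.6, and from 0.388 to 186.8 TPM in fixed cells with a median of 33.3. HSPA1B ranged from 0.197 to 120 TPM in live cells with a median of 38.98, and from 0 to 79.5 TPM in fixed cells with a median of 11.1. The lowest live values of both are those of the column listed under both treatments, without which they were 9.12 and 3.69 TPM. Of the 83 fixed cells, 13 lay above the live median of HSPA1A and 8 above that of HSPA1B, with overlapping ranges. The mean of HSPA1A fell 2.26-fold (102.7 ± 62.2 against 45.5 ± 37.8 TPM, log2 ratio -1.17) and that of HSPA1B 2.35-fold (40.1 ± 21.3 against 17.1 ± 17.1 TPM, -1.23). In the 38 live and 38 fixed cells paired on total reads these log2 ratios were -0.67 and -0.86, short of 2-fold, while in the 53 pairs of HCT-116 cells they were -1.77 and -1.69.

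Both HSP70 genes are rich in G and C, at 59.8% in the HSPA1A and 58.8% in the HSPA1B reference transcript. They fell in the highest quintile of the genes tested by GC content, together with HSPB1 at 65.3%. All genes of that quintile had a median log2 ratio of -0.51 in HCT-116 and -0.26 in HepG2-labelled cells, and 28.5% and 24.02% of them were at least 2-fold lower in fixed cells. The lowest quintile, which holds HSPH1 and HSPE1, had medians of 0.35 and 0.30. The part of GC content in the values of HSPA1A and HSPA1B was not tested, and HSPB1, with the highest GC content of the 10, had log2 ratios of 0.20 and 0.36.

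A gene was called when its mean TPM differed by at least 2-fold, among genes with a mean of at least 1 TPM in either treatment. In HCT-116, 2 of the 10 genes were called lower, HSPA1A and HSPA1B, beside 10.1% of the 12426 genes tested. None of the 10 was called higher, beside 3.81% of all genes tested. In HepG2-labelled cells, HSPA1A and HSPA1B were called lower, beside 11.3% of the 13228 genes tested, and HSP90AA1 was called higher, beside 5.98%. With HSPA1A and HSPA1B taken as 1 gene the lower call is a single one in each line.

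The co-chaperones of HSP70 did not share the size of that difference. DNAJB1, a J-domain protein that stimulates the ATPase of HSP70, had a median of 91.1 TPM in live HCT-116 cells and 75.98 TPM in fixed ones, with ranges of 13.9 to 971 and 12.7 to 263 TPM. Its mean log2 ratio there was -0.37 and in HepG2-labelled cells -0.04, neither of them called. HSPH1 (HSP110), which exchanges the nucleotide of HSP70, had a median of 65.4 TPM in live HCT-116 cells and 39.3 TPM in fixed ones, with 68 of 92 fixed cells below the live median. In HepG2-labelled cells its median was 31.3 TPM over live cells and 40.6 TPM over fixed ones, with 57 of 83 fixed cells above the live median. The HSPH1 log2 ratio was -0.66 in HCT-116 and 0.29 in HepG2-labelled cells. Summed from the transcript values, which are not divided by length, the HCT-116 ratio was 0.013.

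HSP90AA1, the inducible cytosolic HSP90, had the highest ratio of the inducible genes in both lines. In HepG2-labelled cells it ranged from 68.7 to 777 TPM in live cells with a median of 326, and from 68.7 to 1678 TPM in fixed cells with a median of 680. The equal lowest value is that of the column listed under both treatments, without which the lowest were 116.5 and 160.01 TPM. Of 83 fixed cells, 74 lay above the live median and 38.6% above the highest live cell. Its mean rose 2.12-fold (328 ± 136.02 against 696 ± 300 TPM, log2 ratio 1.08), and 8 of 10 alternative settings kept it past 2-fold. These 8 include leaving out cells under 1 M reads, which removed no HepG2-labelled cell and so could not differ. The log2 ratio was 0.87 with cells rescaled by the median ratio and 0.92 without ribosomal RNA genes, where the call was lost. In HCT-116 it ranged from 137.3 to 1285 TPM in live and from 232 to 2037 TPM in fixed cells, with medians of 764 and 1116 TPM and a log2 ratio of 0.57. HSPB1 had log2 ratios of 0.20 and 0.36, with 61 of 92 fixed HCT-116 cells and 61 of 83 fixed HepG2-labelled cells above the live median.

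The 4 constitutive genes all had higher mean TPM in fixed than in live cells of both lines, and none reached 2-fold. HSP90AB1 had a median of 1290 TPM in live HCT-116 cells and 1846 TPM in fixed ones (range 589 to 2281 and 1015 to 3671), and of 515 and 837 TPM in HepG2-labelled cells (range 115.6 to 861 and 216 to 1642). Above the live median lay 79 of 92 fixed HCT-116 cells and 75 of 83 fixed HepG2-labelled cells. Its log2 ratios were 0.59 and 0.77.

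HSPD1 had a median of 699.8 TPM in live HCT-116 cells and 994 TPM in fixed ones, and of 249.8 and 393 TPM in HepG2-labelled cells, with log2 ratios of 0.63 and 0.65. HSPE1, its partner in the mitochondrial chamber, had medians of 513 and 689 TPM in HCT-116 and of 265 and 505 TPM in HepG2-labelled cells, with log2 ratios of 0.50 and 0.86. Of the fixed cells, 77 of 83 in HepG2 lay above the live median of HSPE1. HSPA8 had the smallest ratios of the constitutive genes, 0.30 in HCT-116 and 0.53 in HepG2-labelled cells, with medians of 849.8 and 1100 TPM in HCT-116 and of 568 and 887 TPM in HepG2-labelled cells.

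As groups, the 6 inducible genes had a median log2 ratio of -0.51 in HCT-116 and 0.13 in HepG2-labelled cells, and the 4 constitutive genes 0.54 and 0.71. All genes tested had medians of 0.16 and 0.14. The constitutive genes lay above the all-gene median in 4 of 4 in each line, and the inducible genes in 2 of 6 in HCT-116 and 3 of 6 in HepG2-labelled cells. With ribosomal RNA left out and each cell rescaled, the all-gene median shifted by -0.33 in HCT-116 and -0.19 in HepG2-labelled cells. The constitutive median then became 0.24 and 0.54, and HSPA8 in HCT-116 came to -0.0019 and HSPB1 to -0.12. Relative to the all-gene median, 6 of the 10 genes stood above it in HCT-116 in each of the 10 settings computed, and 7 or 8 in HepG2-labelled cells. In each line 1 of these settings removed no cell and so repeats the main value.

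**Figure D2:**
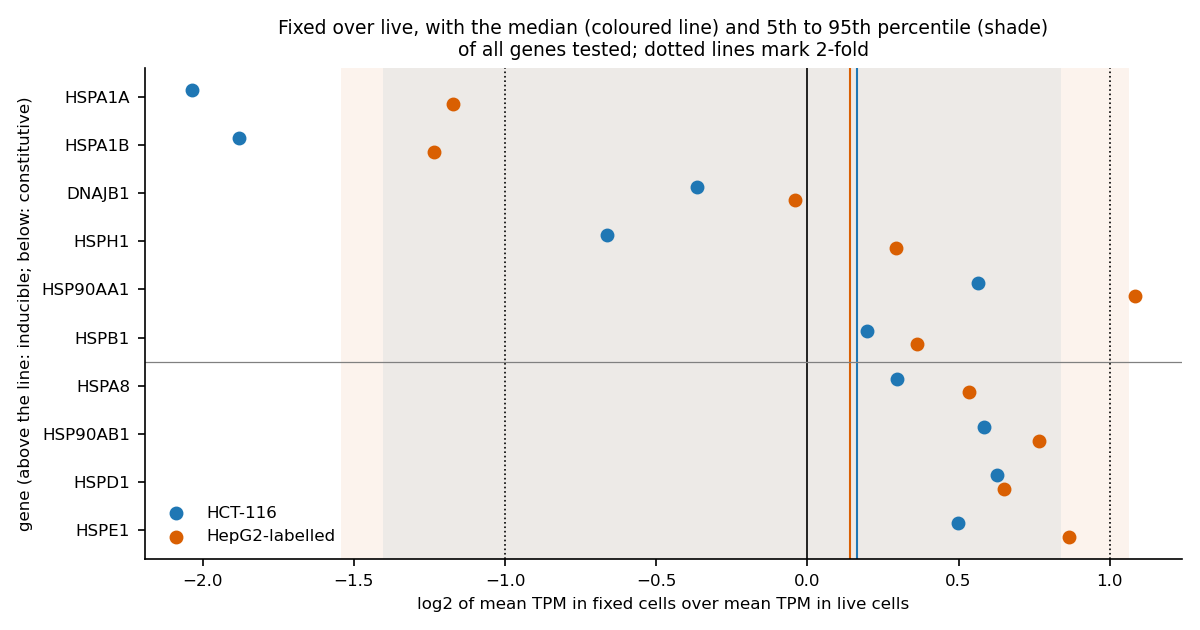
Log2 of mean TPM in fixed over live cells for the 10 genes in HCT-116 (blue) and HepG2-labelled cells (orange), with the median of all genes tested as a coloured line and their 5th to 95th percentile as a shade. In HCT-116, HSPA1A and HSPA1B stand at -2.04 and -1.88, against -1.17 and -1.23 in HepG2-labelled cells, and the 4 constitutive genes between 0.30 and 0.86.

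Between the lines, the split of the HSP70 pair was the widest difference of the 10 genes. HSPA1A made up a median of 3.17% of the summed HSPA1A and HSPA1B level in live HCT-116 cells (range 0% to 15.3%) and of 0.976% in fixed ones. In HepG2-labelled cells it made up 70.4% in live (range 43.5% to 97.8%, or to 95.4% without the column under both names) and 76.6% in fixed cells. It exceeded 50% in 67 of 68 live and 75 of 83 fixed HepG2-labelled cells and in no HCT-116 cell.

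Live HepG2-labelled cells had 23.3-fold more HSPA1A than live HCT-116 cells (102.7 against 4.41 TPM, log2 ratio 4.54) and 3.01-fold less HSPA1B (40.1 against 120.6 TPM, -1.59). The ranges of HSPA1A in live cells overlapped only between 8.90 and 27.3 TPM. The sum of both differed by 1.14-fold (142.8 ± 79.5 against 124.99 ± 121.9 TPM, log2 ratio 0.19), less than either SD. In fixed cells the ratios were 5.40 for HSPA1A, -0.94 for HSPA1B and 0.89 for the sum. The reference transcripts share most of their sequence, so a difference of the lines in this region could alter how reads were divided, which was not tested.

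**Figure D3:**
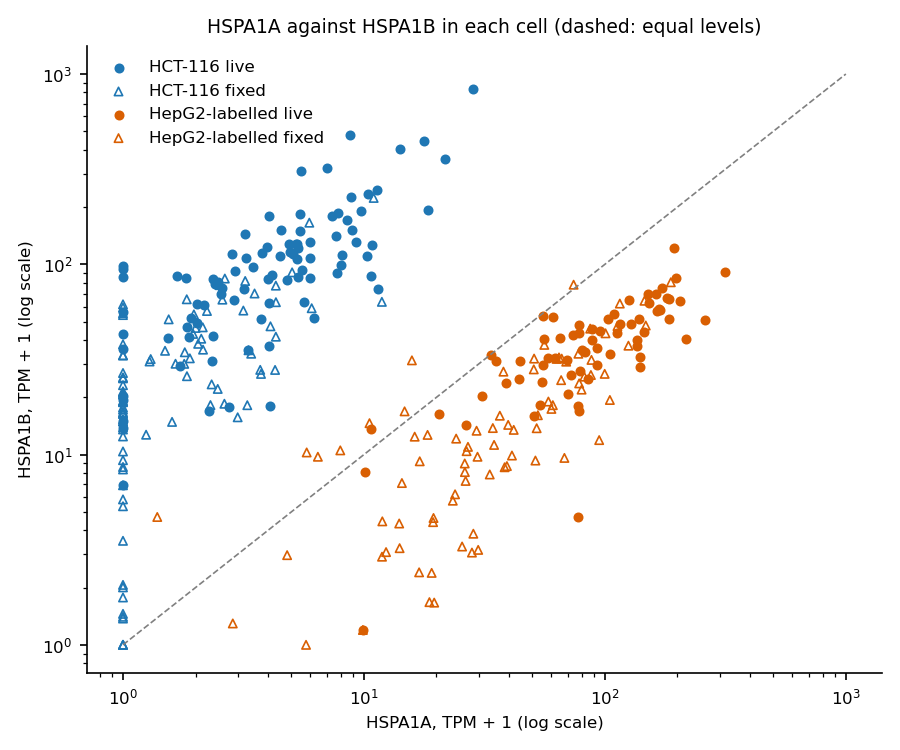
HSPA1A against HSPA1B in each cell, both as TPM + 1 on log axes, for live (filled) and fixed (open) cells of HCT-116 (blue) and of the HepG2-labelled cells (orange), with a dashed line at equal levels. The HCT-116 cells lie above the line with HSPA1A at 3.17% of the sum in the median live cell, and 67 of 68 live HepG2-labelled cells lie below it.

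Of the 10 genes in live cells, 1 was called higher in HepG2-labelled cells (HSPA1A), beside 24.5% of the 13560 genes tested, and 5 were called lower (HSPA1B, HSPH1, HSP90AA1, HSP90AB1 and HSPD1), beside 19.5%. The lower values ran from -1.03 for HSPH1 to -1.59 for HSPA1B. As a difference of mean log2(TPM + 1), HSPH1 was at -0.91, short of 2-fold. Leaving out ribosomal RNA genes shifted the all-gene median between the live lines by -0.17, so calls near 2-fold depend on the scaling. HSPD1 was 2.72-fold and HSP90AB1 2.57-fold lower, and HSPE1 was at -0.96. HSPB1 was at 0.97. In fixed cells HSPA1A (5.40) and HSPB1 (1.13) were called higher, beside 24.1% of the 13228 genes tested, and HSP90AB1 (-1.18) and HSPD1 (-1.42) lower, beside 19.1%. The median of the 10 genes was -0.99 for live cells against -0.50 for fixed ones, and that of all genes tested 0.10 and 0.09.

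The inducible genes had the higher median variation over cells in each group, but the classes overlapped: inducible HSP90AA1 varied less than constitutive HSPA8 in all 4 groups. The coefficient of variation of TPM (CV, the SD divided by the mean) had a median over the inducible genes of 0.838 for live HCT-116, 0.711 for fixed HCT-116, 0.575 for live HepG2-labelled and 0.583 for fixed HepG2-labelled cells. Over the constitutive genes it was 0.397, 0.491, 0.376 and 0.368 in the same order, and over all genes with a mean of at least 100 TPM it was 0.343, 0.394, 0.374 and 0.367. Genes with low means have higher CVs, and HSPA1A, HSPA1B, HSPH1 and DNAJB1 were the members with the lowest means, so class and level cannot be told apart in this comparison.

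HSP90AB1 had the lowest CV of the 10 genes in every group, 0.283 in live HCT-116, 0.312 in fixed HCT-116, 0.330 in live HepG2-labelled and 0.333 in fixed HepG2-labelled cells. In live HCT-116 cells the CVs of HSPA1B (0.980) and DNAJB1 (0.975) were above those of 96.9% and 96.8% of the 866 genes with a mean of at least 100 TPM. The same cell was the highest for both, at 835 and 971 TPM against group medians of 91.3 and 91.1 TPM. That cell raises both CVs and the inducible median of 0.838. Those of HSP90AA1 (0.352) and HSPD1 (0.320) were above 54.5% and 40.6%. HSPA8 was the most variable constitutive gene in each group, with CVs of 0.618 and 0.619 for HCT-116 and 0.478 and 0.484 for HepG2-labelled cells, live before fixed. HSPB1 had a CV of 0.581 in live and 0.383 in fixed HepG2-labelled cells.

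A few live HCT-116 cells stood far above the rest. The live HCT-116 cell with the highest sum of HSPA1A and HSPA1B (862 TPM) was also the highest of 91 cells for HSPA1A (27.3 TPM), HSPA1B (835 TPM), DNAJB1 (971 TPM) and HSPB1 (2739 TPM). Its top ranks for HSPA1A and HSPA1B follow in part from the choice of the cell by their sum. The same cell ranked 36th for HSP90AA1 (855 TPM) and 60th for HSPH1 (50.3 TPM), both counted as inducible. It ranked 51st for HSPA8 (762 TPM), 55th for HSP90AB1 (1160 TPM), 60th for HSPD1 (607 TPM) and 85th for HSPE1 (204 TPM). This cell had 2 M reads. In the HepG2-labelled live cells the highest cell (404 TPM for the sum) ranked first also for HSPH1, HSP90AA1 and HSPA8. It was within the first 5 for HSPB1, HSP90AB1, HSPD1 and HSPE1, and 9th for DNAJB1. At least 4 times the group median of HSPA1B was reached by 4 live HCT-116 cells and by 0 live HepG2-labelled cells. Leaving out the highest cell of each group left the number of calls in both lines as it was.

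**Figure D4:**
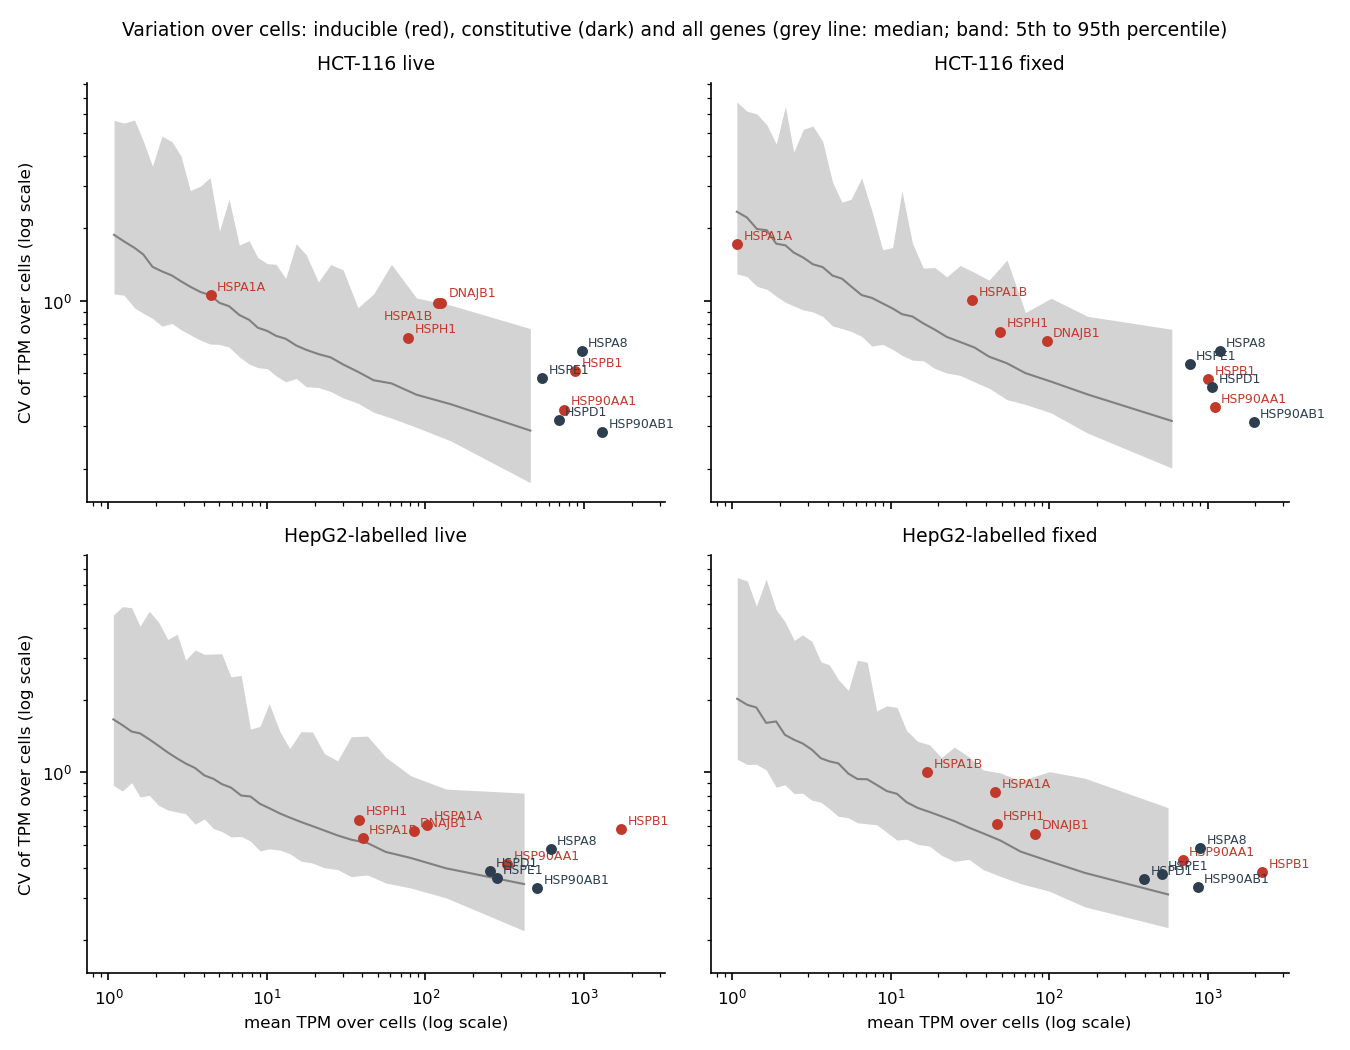
CV of TPM over cells against mean TPM, both on log axes, for the inducible (red) and constitutive (dark) genes in the 4 groups, with the median (grey line) and the 5th to 95th percentile (band) of all genes in bins of mean TPM; the bins stop at the median level of the top bin. HSP90AB1 has the lowest CV in each group, 0.283 to 0.333, and HSPA1B and DNAJB1 lie near 1 in live HCT-116 cells. There the same cell is the highest for both genes and raises both CVs.

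Co-variation over cells was described by the Pearson correlation of log2(TPM + 1), with 45 pairs of genes in each group and no p-value, since the cells of a group share a culture and libraries and differ in depth. Pairs of constitutive genes had a median r of 0.64 over 91 live HCT-116 cells, 0.61 over 92 fixed ones, 0.65 over 68 live HepG2-labelled cells and 0.69 over 83 fixed ones. Pairs of inducible genes had medians of 0.35, 0.28, 0.45 and 0.36 in the same order of groups, and pairs of an inducible with a constitutive gene 0.38, 0.35, 0.47 and 0.32. All pairs of genes with a mean of at least 10 TPM had medians of 0.06, 0.07, 0.18 and 0.09, and these were not matched to the members in level. The members with the lowest means are all inducible, so class and level cannot be told apart here either. The median of the inducible pairs was below that of the mixed pairs in each group but the fixed HepG2-labelled cells.

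Correlations of HSPA1A, HSPA1B and DNAJB1 with each other differed between groups. HSPA1A with HSPA1B, which share reads, had r of 0.74, 0.59, 0.76 and 0.75, again in that order. HSPA1B with DNAJB1, which belong to different families, had r of 0.67, 0.62, 0.41 and 0.45, and HSPA1A with DNAJB1 had 0.52, 0.39, 0.65 and 0.55. In live HepG2-labelled cells the 0.41 lay below the median of all 45 pairs of the 10 genes (0.48).

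Among HSP90AA1, HSP90AB1, HSPD1 and HSPE1, HSP90AB1 with HSPD1 had r of 0.79, 0.76, 0.73 and 0.81, and the head-to-head pair HSPD1 and HSPE1 had 0.80, 0.77, 0.61 and 0.71. HSP90AA1, counted as inducible, had r of 0.67, 0.73, 0.74 and 0.74 with HSPD1, and of 0.42, 0.30, 0.50 and 0.54 with HSPA1B. HSPA8 had r of 0.60, 0.50, 0.49 and 0.38 with HSPA1B. Without the column listed under both treatments, the HepG2 values changed for HSPD1 with HSPE1 to 0.77 (live) and 0.81 (fixed), and for HSP90AA1 with HSPA1B in live cells to 0.35. The correlations of HSPB1 with the other members ran from -0.0030 to 0.49 over the 4 groups.

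**Figure D5:**
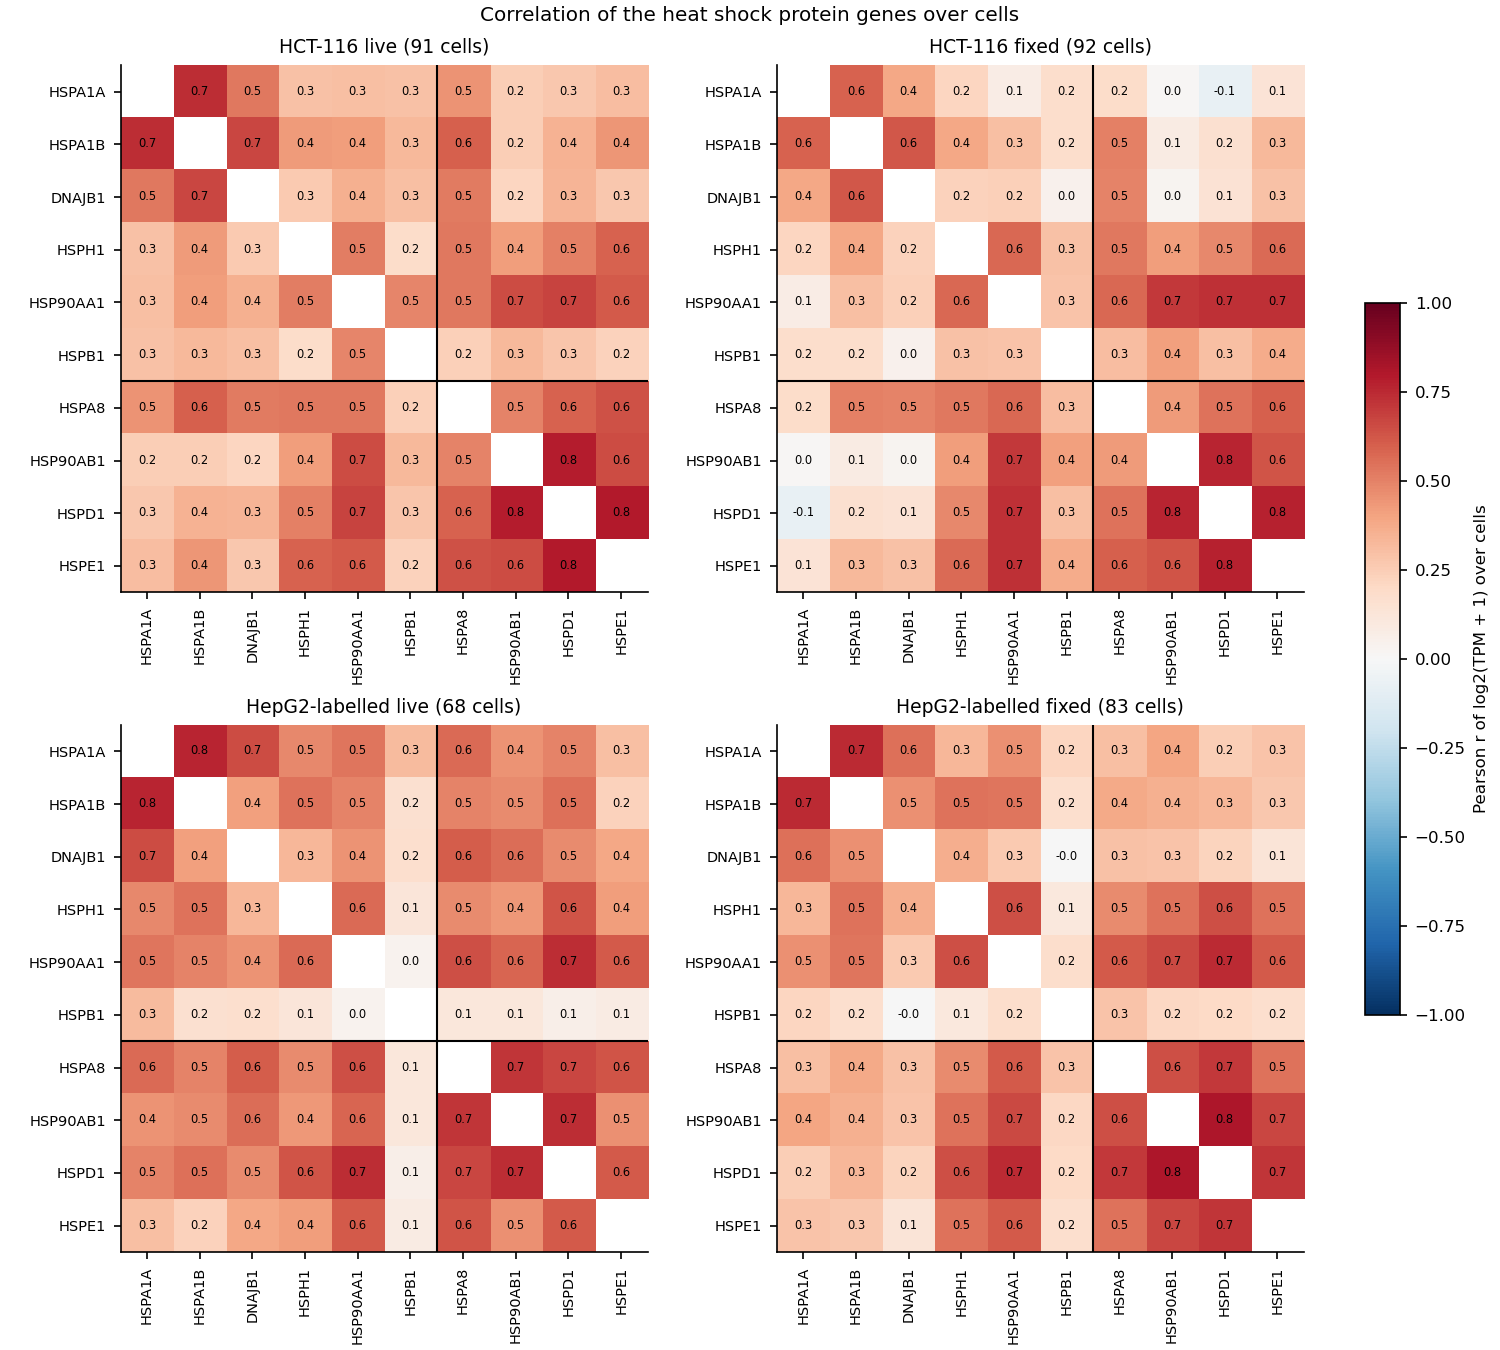
Pearson r of log2(TPM + 1) over cells for the 45 pairs of genes in each group, with lines between the 6 inducible and the 4 constitutive genes. HSP90AB1, HSPD1, HSPE1 and, on the inducible side, HSP90AA1 have r between 0.46 and 0.81 with each other in all 4 groups. The lowest is HSP90AB1 with HSPE1 in live HepG2-labelled cells, while HSP90AB1 with HSPD1 lies between 0.73 and 0.81. The row of HSPB1 is pale.

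Depth and scaling moved with these correlations. After each cell was rescaled by its median ratio over broadly detected genes, the median r of all gene pairs fell to between 0.0017 and 0.018, that of the constitutive pairs was 0.52 for live HCT-116, 0.44 for fixed HCT-116 and 0.46 for live HepG2-labelled cells, and that of the inducible pairs in live HepG2-labelled cells was 0.06. HSPA1B with DNAJB1 then had r of 0.63 and 0.59 in live and fixed HCT-116 cells but of -0.02 in live HepG2-labelled cells. In live HepG2-labelled cells HSPA1A had r of 0.54 with total reads, against 0.17 in live HCT-116 cells. HSPD1 with HSPE1 kept r of 0.73, 0.64, 0.49 and 0.62 after rescaling.

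The members differed in how they followed the cell cycle. Over 20 S-phase genes taken as a mean, HSPE1 had r of 0.55 and 0.68 in live and fixed HCT-116 cells and HSP90AA1 of 0.60 and 0.63. In HepG2-labelled cells these were 0.49 and 0.29 for HSPE1 and 0.49 and 0.38 for HSP90AA1. Over 20 genes of G2 and mitosis, HSPA8 had r of 0.64 and 0.64 among HCT-116 cells and 0.57 and 0.53 among HepG2-labelled cells. With those genes HSPE1 had r of 0.52 and 0.58 in HCT-116 and of 0.62 and 0.32 in HepG2-labelled cells. HSP90AA1 had 0.52 and 0.59, and 0.66 and 0.53, in the same order. With the S-phase genes HSPA8 had r of 0.54 and 0.59 in HCT-116 and of 0.52 and 0.59 in HepG2-labelled cells. HSPE1, HSP90AA1 and HSPA8 thus went with both lists and not with a single phase. This was not particular to them: in live HCT-116 cells HSPD1 had r of 0.55 and 0.52 with the S-phase and the G2 and mitosis genes, and HSPH1 0.47 and 0.53. Depth was not taken out, and in live HepG2-labelled cells HSPE1, HSP90AA1 and HSPA8 had r of 0.33, 0.38 and 0.44 with total reads. HSPB1 had r of 0.13 and 0.17 with the G2 and mitosis genes in HCT-116, and of 0.18 and 0.05 in HepG2-labelled cells. With the mean over immediate-early genes such as FOS and JUN, which respond within minutes to stimuli and handling, the sum of HSPA1A and HSPA1B had r of 0.12 and 0.08 among HCT-116 cells and 0.30 and 0.39 among HepG2-labelled cells. Of the 26 immediate-early genes tested, 10 were called lower in fixed HCT-116 cells (median log2 ratio -0.63), beside 10.1% of all genes tested, and none higher. In HepG2-labelled cells 15 of 26 were called lower (median -1.26), beside 11.3%, and 1 higher.

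The genes whose level followed the sum of HSPA1A and HSPA1B most closely, among the 5201 with a mean of at least 10 TPM and detected in at least 50% of live HCT-116 cells, were DNAJA1 (r = 0.65), MRPL18 (0.62), HSPA4 (0.58), CACYBP (0.56) and STIP1 (0.56). DNAJA1 is a J-domain partner of HSP70, HSPA4 an HSP110 family member, and STIP1 links HSP70 to HSP90. In fixed HCT-116 cells the first was PCNA (0.56), a replication clamp, and in live and fixed HepG2-labelled cells MAPRE1 (0.78) and SDF4 (0.64), so the leading genes were not shared between groups. These rankings kept the column listed under both treatments and were not adjusted for depth. In live HepG2-labelled cells the sum had r of 0.56 with total reads, so depth may bear on its leading genes there. DNAJB1 in live HCT-116 cells was followed by BUB3 (0.53), DNAJA1 (0.52) and MRPL18 (0.51).

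HSPD1 in live HCT-116 cells was followed by CACYBP (0.77) and by TCP1 (0.75), CCT6A (0.75) and CCT5 (0.73), subunits of the cytosolic chaperonin. In fixed HepG2-labelled cells its leading genes were RAN (0.83), HSPA9 (0.80), the mitochondrial HSP70, and CCT6A (0.76). In fixed HCT-116 cells NCL (0.77) came first, with TCP1 (0.71) and CCT5 (0.70) among the 5 closest. In live HepG2-labelled cells the 5 closest to HSPD1 were PSMA3 (0.79), NUDC (0.77), EIF5A (0.77), PPP2R4 (0.76) and LRRC59 (0.75). None of those 5 is a chaperonin subunit. That ranking includes the column listed under both treatments, with HSPD1 at 34.3 TPM against a next lowest live value of 95.8 TPM. HSP90AB1 was followed first by NPM1 in live (0.70) and fixed (0.72) HCT-116 cells, by EIF4A1 (0.79) in live and by CCT7 (0.71) in fixed HepG2-labelled cells.

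The other genes of the chaperone system were taken from lists by family, which with the members were drawn up with earlier results of these data known. In HCT-116, 0 of 7 other HSP70 genes, 0 of 21 other J-domain genes and 0 of 2 other HSP90 genes were called in either direction, as were 0 of 3 genes for HSF proteins and their regulator. Among the co-chaperones 2 of 24 were called lower, a share near the 10.1% of all genes tested, and none higher. CDC37, which brings kinases to HSP90, fell from 190 to 87.99 TPM (log2 ratio -1.11), and UNC45A, a myosin chaperone that works with HSP90, from 32.6 to 13.9 TPM (-1.23). Of 3 small heat shock and collagen chaperone genes tested, 1 fell, SERPINH1 (HSP47, -1.07).

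In HepG2-labelled cells CDC37 (-1.53) and UNC45A (-1.001) were the 2 of 24 co-chaperones called lower, beside 11.3% of all genes tested, and SERPINH1 was at -0.997, just short of 2-fold. DNAJB2 (1.85, higher) and HSF4 (-1.56, lower) were also called, both with means under 2 TPM. HSPA9 had log2 ratios of 0.56 in HCT-116 and 0.31 in HepG2-labelled cells. HSPA5 and HSP90B1, the HSP70 and HSP90 of the endoplasmic reticulum, stood at 0.40 and 0.11 for HCT-116 but at -0.59 and -0.66 for HepG2-labelled cells. HSF1 was at -0.53 and -0.13, HSF2 at 0.51 and 0.28, and the HSP70 co-chaperone BAG3 at -0.35 and -0.60.

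Among transcripts, 1 accession carried nearly all of the reads for most of the 10 genes: 99.3% of the summed transcript value of HSP90AA1 and 99.2% of that of HSP90AB1 in live HCT-116 cells, and 98.1% of those of DNAJB1 and HSPD1. HSPA8 was divided between a predicted transcript with 72.4% and a curated one with 27.4% in live HCT-116 cells. HSPH1 was spread over 10 listed transcripts, with the leading one at 46.6% and 53.7% of the gene's summed transcript value for HCT-116, live before fixed, and at 57.7% and 73.8% for HepG2-labelled cells. The 3 most abundant HSPH1 transcripts in HCT-116 included 2 predicted ones, and reads divided among overlapping transcripts are estimates.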

How the data were processed

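Reads of single cells were quantified by the authors with kallisto 0.46.0 against GRCh38, and transcripts were summed to genes with tximport. The authors deposited TPM (transcript abundance scaled for length and to a total of 1000000) per gene for each line, and per transcript a value that behaves as CPM (counts scaled to the same total, not divided by length). The most frequent CPM value of a cell, taken as a single read, gave its total reads to the nearest 0.1 M reads. All 334 columns, of 346 labelled cells, were used, each matched to its line and treatment; the study had kept cells with more than 4000 genes, and 0 columns were left unmapped. Annotations of RefSeq transcripts covered 61.7% of the HCT-116 and 61.8% of the HepG2 accessions, and 87.7% to 91.6% of the CPM.

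The main value was log2 of mean TPM in fixed over live cells, or in one line over the other, among genes with a mean of at least 1 TPM, called at 2-fold. With 1 sample per line and treatment no test was run. Correlations used log2(TPM + 1). GC content was that of the MANE Select transcript or, where there is none, of the longest one (91.6% of tested HCT-116 genes and 89.4% of tested HepG2 genes had a value). The members and all lists were chosen with earlier results of these data known. Named beside the members are genes of the chaperone lists past 2-fold in either line with a mean of at least 10 TPM in one treatment, a fixed few of those lists, and the 5 genes most correlated with a member; DNAJB2 and HSF4 were named after their values were seen. Alternatives were pseudocounts, means on the log scale, medians, rescaling by the median ratio, leaving out ribosomal RNA genes or equal columns, cells paired on total reads, other filters and folds, Spearman correlation, and depth regressed out. Chosen after seeing the data were transcript CPM per gene, leaving out cells under 1 M reads or the cell with the highest HSP70 sum, and HSPA1A and HSPA1B as 1 gene. Computations were tested on simulated data. Tools were pandas 2.3.3, scipy 1.17.1, numpy 2.4.6 and matplotlib 3.10.9 under Python 3.11.15.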

Additional observations from a re-analysis of the deposited data

Results flagged for a closer look

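HSPH1 had a log2 ratio of mean TPM, fixed over live, of -0.66 in HCT-116 and of 0.29 in HepG2-labelled cells, and opposite signs in the lines are what singled it out. HSPA5 was likewise at 0.40 in HCT-116 and -0.59 in HepG2-labelled cells, and HSP90B1 at 0.11 and -0.66. None of these values is past 2-fold, and with 1 sample per line and treatment the difference between the lines was not tested.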

How the results depend on the processing

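No paired analysis was possible because each line and treatment is 1 sample and no result comes from a test. Of 200 member ratios between treatments and 200 between lines, 199 each moved by less than the spread over cells under the alternatives. HSPA1A was the exception by medians over cells, at -4.64 for fixed over live in HCT-116 and 8.07 between the fixed lines. The spread over single cells is a wide yardstick, so these counts do not show that the ratios are stable. HSPA8 in HCT-116 went from 0.30 to -0.0019 within a spread of 0.94. No called value changed sign. Some alternatives could not differ from the main value: HCT-116 has no equal columns, and no HepG2-labelled cell had under 1 M reads. The median ratio of the constitutive genes moved with the scaling: to 0.35 in HCT-116 and 0.50 in HepG2-labelled cells after rescaling by the median ratio, to 0.24 and 0.54 without ribosomal RNA, and to 0.94 in HepG2-labelled cells paired on total reads. The members called lower became 1 in HCT-116 at a mean of at least 10 TPM, 1 in each line with HSPA1A and HSPA1B as 1 gene, and 0 in HepG2-labelled cells paired on reads. The members called higher became 2 in HCT-116 and 4 in HepG2-labelled cells at 1.5-fold, 0 in HepG2-labelled cells after rescaling and 0 without ribosomal RNA, and 2 when paired on reads. After rescaling, the median correlation of the constitutive pairs was 0.52 for live HCT-116, 0.44 for fixed HCT-116 and 0.61 for fixed HepG2-labelled cells. In live HepG2-labelled cells it was 0.46, and there the inducible pairs came to 0.056 and the mixed pairs to 0.098. The median CV of the constitutive genes was 0.288 in fixed HepG2-labelled cells paired on reads. HSPA1A was above 1 TPM in 34.8% of fixed HCT-116 cells. The sign of a member below 2-fold turned for DNAJB1 in HepG2-labelled cells in 4 of 10 alternatives and for HSPH1, HSPB1 and HSPA8 in HCT-116 in 1, 2 and 1 of 10. The cause of these shifts was not tested. Depth limits HSPA1A in HCT-116, with a median of 0.984 estimated reads in fixed cells.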
